A study of Rattus norvegicus with 5 samples.

Results

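The peaks described here are all regions on rat chromosome 12 that an antibody against N6-methyladenine (6mA) enriched over input DNA in Astrocytes, Neurons or neural stem cells (NSCs). They were chosen by their chromosome, and the chromosome itself was selected on its measured peak density, so the density is given as a description and supports nothing else. The Astrocyte list held 3007 chromosome 12 peaks of 116091 (2.59%), the Neuron list 3612 of 137579 (2.63%) and the NSC list 3020 of 121816 (2.48%). Together these were 9639 of 375486 listed peaks (2.57%).

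The study mapped 6mA in rat neural cells, in a series on hippocampal neurogenesis, by immunoprecipitation of sonicated, denatured genomic DNA (MeDIP-seq), with elution by 6mA monophosphate. The groups used here were Astrocytes, Neurons and NSCs of the SCR022 line, a single line of rat neural stem cells, with 1 immunoprecipitated library each. The labels give no treatment, age, sex or strain, and do not say from what the Astrocytes and Neurons were derived. With 1 library per cell type there was no replicate and no test between cell types, and a difference between cell types cannot be told apart from a difference between libraries. The files hold no expression values, so the cell type labels could not be checked against marker genes.

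6mA is adenine carrying a methyl group on its exocyclic nitrogen. It is an abundant mark in bacteria and some protists, and in mammals its amount, its writers and its readers are debated; N6amt1 has been proposed as a writer. An antibody peak reports DNA that the antibody retained and does not read single bases, and no second measure of 6mA was used here. Rat chromosome 12 is a small autosome that carries, among others, the orthologues of the human Williams syndrome interval, the Oas cluster of interferon-induced antiviral enzymes and the Cyp3a cluster of drug-metabolising cytochromes.

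Promoter peaks present in all 3 cell types are the members that can be tied most directly to a named sequence. Ranked by the lowest of their 3 scores, the leading named genes were Upk3bl, Rnf216, Zan, Msi1, Hspb8, Clec4g, Oas2, Ulk1 and Oas3. For 5 of them the 250 bases before the gene start are printed from RefSeq, build GRCr8, read 5′ to 3′ on the gene's strand. Capitals mark the word GAGGC or GAGGT, and likewise CAGGC or CAGGT, on either strand, which have been reported around 6mA in human DNA; overlapping words share a run of capitals. No source used here gives the build of the peak files. Their positions are not those of GRCr8, since the Astrocyte promoter peak of Rnf216 starts at chr12:13505962 in them. Whether a peak covers exactly these bases could therefore not be placed, and all peak positions given below are those of the peak files.
Rnf216, chr12:16568123-16568372, plus strand: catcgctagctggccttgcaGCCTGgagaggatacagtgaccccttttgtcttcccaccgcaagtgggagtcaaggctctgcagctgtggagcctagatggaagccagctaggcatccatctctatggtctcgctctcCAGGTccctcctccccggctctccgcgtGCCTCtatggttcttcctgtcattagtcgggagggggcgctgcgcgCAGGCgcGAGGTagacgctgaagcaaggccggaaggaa
Hspb8, chr12:45837058-45837307, plus strand: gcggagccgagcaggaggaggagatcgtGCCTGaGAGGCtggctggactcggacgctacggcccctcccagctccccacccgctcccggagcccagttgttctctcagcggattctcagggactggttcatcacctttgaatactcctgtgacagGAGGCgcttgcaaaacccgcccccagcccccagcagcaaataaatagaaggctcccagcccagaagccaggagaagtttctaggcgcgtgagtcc
Clec4g, chr12:6582914-6583163, minus strand: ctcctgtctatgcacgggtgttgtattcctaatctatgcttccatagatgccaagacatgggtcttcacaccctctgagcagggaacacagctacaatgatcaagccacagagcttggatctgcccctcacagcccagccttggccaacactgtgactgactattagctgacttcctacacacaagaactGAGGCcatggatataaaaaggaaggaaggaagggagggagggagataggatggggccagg
Ulk1, chr12:51511242-51511491, plus strand: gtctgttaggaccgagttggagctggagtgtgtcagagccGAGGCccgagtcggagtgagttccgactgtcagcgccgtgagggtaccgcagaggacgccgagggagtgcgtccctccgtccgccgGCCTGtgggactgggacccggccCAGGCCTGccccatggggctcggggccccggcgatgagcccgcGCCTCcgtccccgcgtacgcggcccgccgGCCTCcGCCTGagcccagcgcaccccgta
Oas3, chr12:41439482-41439731, plus strand: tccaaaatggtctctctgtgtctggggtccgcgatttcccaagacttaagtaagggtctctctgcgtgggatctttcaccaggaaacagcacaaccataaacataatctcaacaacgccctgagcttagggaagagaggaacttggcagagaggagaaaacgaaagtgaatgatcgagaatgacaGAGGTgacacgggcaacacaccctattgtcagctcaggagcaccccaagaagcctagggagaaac
The Ulk1 stretch held 7 such words and 30 CpG sites at a GC content of 73.6%, the Rnf216 stretch 5 words and 14 CpG sites, and the Hspb8 stretch 3 words and 13 CpG sites. The Clec4g stretch held 1 word and 1 CpG site, and the Oas3 stretch 1 word and 7 CpG sites. Of all 33360 rat promoters of this length, 90.7% held at least 1 of the words, with a median of 3. Of the 1063 on chromosome 12, 92.0% did, so a match in a promoter with a peak is what most promoters show.

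The immunoprecipitated libraries held 15767015 reads in Astrocytes, 16095308 in Neurons and 15760246 in NSCs, of which 13785430 to 13930646 mapped uniquely. The inputs were deeper, with 22329441 reads for Neurons and 27936774 for NSCs. Unmapped reads made up 9.59% to 10.3% of the immunoprecipitated libraries and 0.189% to 0.259% of the inputs. Peak scores are the authors' own values, 10 times the −log10 of the peak caller's p, with a minimum of 50, and the authors' fold is the library over its input at the peak. Shares carry exact Clopper-Pearson 95% intervals that cover counting error only, since neighbouring peaks are not independent. Values for the other chromosomes include X and Y, while ranks and values for the other autosomes do not.

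Chromosome 12 was the most densely marked autosome in each cell type, and most of its excess consisted of high-scoring peaks. It carried 57.1 peaks per Mb in Astrocytes, 68.5 in Neurons and 57.3 in NSCs, over 52.7 Mb. The next densest autosome was chromosome 19, with 51.8, 59.9 and 51.9 peaks per Mb in Astrocytes, Neurons and NSCs, and the sparsest was chromosome 14, with 25.2, 30.5 and 27.4. Relative to the median of the other autosomes, chromosome 12 was 1.30 times as dense in Astrocytes (exact Poisson interval of its peak count, 1.25 to 1.35), 1.31 times in Neurons (1.27 to 1.35) and 1.25 times in NSCs (1.20 to 1.29). These intervals treat peaks as independent and the median as fixed, so they are too narrow. Over its 1 Mb windows, the variance of the count was 5.09 times the mean in Astrocytes, 7.11 in Neurons and 5.16 in NSCs. A Poisson count has a variance equal to its mean. In all 3 cell types chromosome 12 ranked first of 20.

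**Figure D1:**
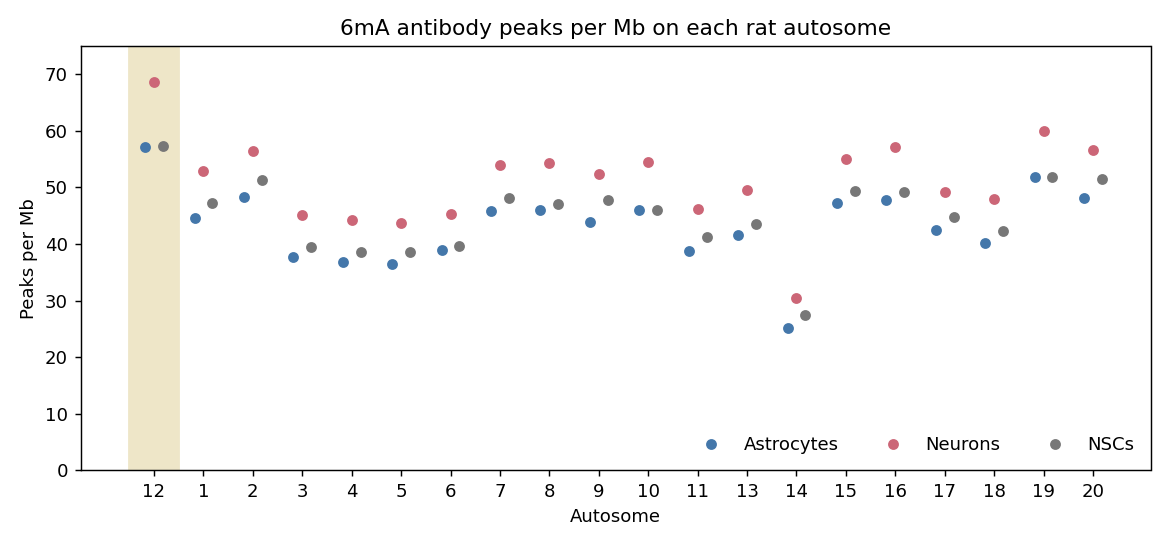
Peaks per Mb (vertical axis) on each of the 20 rat autosomes (horizontal axis), with chromosome 12 shaded at the left and 1 point per cell type and autosome. Chromosome 12 sits at 57.1 in Astrocytes, 68.5 in Neurons and 57.3 in NSCs, above chromosome 19 at 51.8, 59.9 and 51.9.

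Each list was split into score quartiles over the whole genome. In the lowest quartile chromosome 12 held 11.1 peaks per Mb in Astrocytes, 12.9 in Neurons and 10.7 in NSCs, which was 1.04, 1.02 and 0.960 times the median of the other autosomes, and it ranked 5, 9 and 13 of 20. In the highest quartile it held 21.7 peaks per Mb in Astrocytes, 26.5 in Neurons and 22.3 in NSCs. Those densities were 2.0 times, 2.01 times and 1.97 times the median of the other autosomes, and the next autosome, chromosome 19, reached 16.5, 18.5 and 16.5. The highest quartile therefore took 38.1% of the chromosome 12 peaks of Astrocytes, 38.7% of those of Neurons and 39.0% of those of NSCs. Score and density come from the same calls that chose the chromosome, so this is a description of where the density lay.

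The chromosome 12 peaks were broader, while their median fold was lower and the 90th percentile of their folds higher. Their median width was 569 bp in Astrocytes, 581 bp in Neurons and 583.5 bp in NSCs, the widest of the 20 autosomes each time, where the medians of the other autosomes were 440.0, 454.0 and 457.0 bp. Their median score was 110.8 in Astrocytes, 113.6 in Neurons and 113.9 in NSCs, also the highest of 20. Their median authors' fold was 11.56 in Astrocytes, 11.96 in Neurons and 11.97 in NSCs, which ranked 17, 16 and 13 of 20, below medians of the other autosomes of 12.7, 12.3 and 12.5. The 90th percentile of the fold was 31.2 on chromosome 12 and 29.9 on the other chromosomes in Astrocytes, 31.7 and 29.9 in Neurons, and 29.4 and 27.3 in NSCs. Peaks covered 35.6 kb per Mb of chromosome 12 in Astrocytes, 43.3 in Neurons and 36.5 in NSCs, which was 1.65, 1.65 and 1.503 times the median of the other autosomes.

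The excess over the other autosomes was larger for peaks annotated to genes than for the rest. Peaks in a gene class (promoter, gene body, exon, intron, or within 2 kb of a gene) numbered 27.7 per Mb in Astrocytes, 33.7 in Neurons and 27.9 in NSCs. Those values ranked first of 20 and were 1.67, 1.74 and 1.60 times the median of the other autosomes. Peaks outside every gene class numbered 29.4 per Mb in Astrocytes, 34.9 in Neurons and 29.5 in NSCs, and ranked 4, 4 and 6, at 1.13, 1.14 and 1.08 times the median.

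The share of peaks inside gene bodies was higher on chromosome 12 in every cell type, the highest of the 20 autosomes each time. In Astrocytes it was 44.0% (42.2 to 45.8) on chromosome 12, against 34.8% (34.5 to 35.0) on the other chromosomes. In Neurons it was 44.0% (42.4 to 45.7), against 34.5% (34.2 to 34.7). In NSCs it was 43.5% (41.7 to 45.3), against 33.9% (33.7 to 34.2). Almost all of these were intronic, with 43.0% of chromosome 12 peaks in introns in Astrocytes, 43.3% in Neurons and 42.7% in NSCs. How much of each chromosome's sequence lies in genes was not measured, so these shares are not set against gene content.

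Promoters, exons and the flanks of CpG islands followed the same order. Promoter peaks made up 4.26% (3.56 to 5.04) of the chromosome 12 peaks of Astrocytes, against 2.99% (2.89 to 3.09) elsewhere. In Neurons they made up 4.84% (4.17 to 5.60), against 3.16% (3.06 to 3.25), and in NSCs 4.67% (3.94 to 5.48), against 2.92% (2.83 to 3.02). Exonic peaks took 4.66% in Astrocytes, 5.18% in Neurons and 4.27% in NSCs on chromosome 12, against 2.84%, 3.00% and 2.75% on the other chromosomes. Peaks on CpG island shores, the flanks of islands, took 1.80% in Astrocytes, 1.91% in Neurons and 1.85% in NSCs, against 0.972%, 1.05% and 0.891%. The intervals were apart for all of these. CpG islands themselves held 9 chromosome 12 peaks in Astrocytes, 12 in Neurons and 7 in NSCs, and there the intervals of chromosome 12 and of the other chromosomes overlapped.

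Along the chromosome the peaks were spread unevenly, in nearly the same places in each cell type. Over 52 full windows of 1 Mb, the lowest, median and highest counts were 30, 57 and 104 in Astrocytes, 32, 69 and 131 in Neurons, and 25, 54 and 101 in NSCs. The counts averaged 57.6 ± 17.1 in Astrocytes, 69.1 ± 22.2 in Neurons and 57.6 ± 17.2 in NSCs (SD over 52 windows). Counts per window correlated between Astrocytes and Neurons (Spearman rho 0.933), between Neurons and NSCs (0.896) and between Astrocytes and NSCs (0.865). These correlations describe 52 neighbouring windows that share base composition and mappability, and carry no p.

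The excess was widespread along the chromosome rather than held by a few windows. The median of 2557 windows on the other autosomes was 42.0 peaks in Astrocytes, 49.0 in Neurons and 44.0 in NSCs. Of the 52 windows of chromosome 12, 42 lay above that median in Astrocytes, 38 in Neurons and 41 in NSCs. Above the 90th percentile of the other autosomes (59.0, 69.0 and 61.0 peaks in Astrocytes, Neurons and NSCs) were 23 windows in Astrocytes, 25 in Neurons and 19 in NSCs. The highest window of chromosome 12 exceeded every window of the other autosomes, whose maxima were 103 in Astrocytes, 111 in Neurons and 92 in NSCs.

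**Figure D2:**
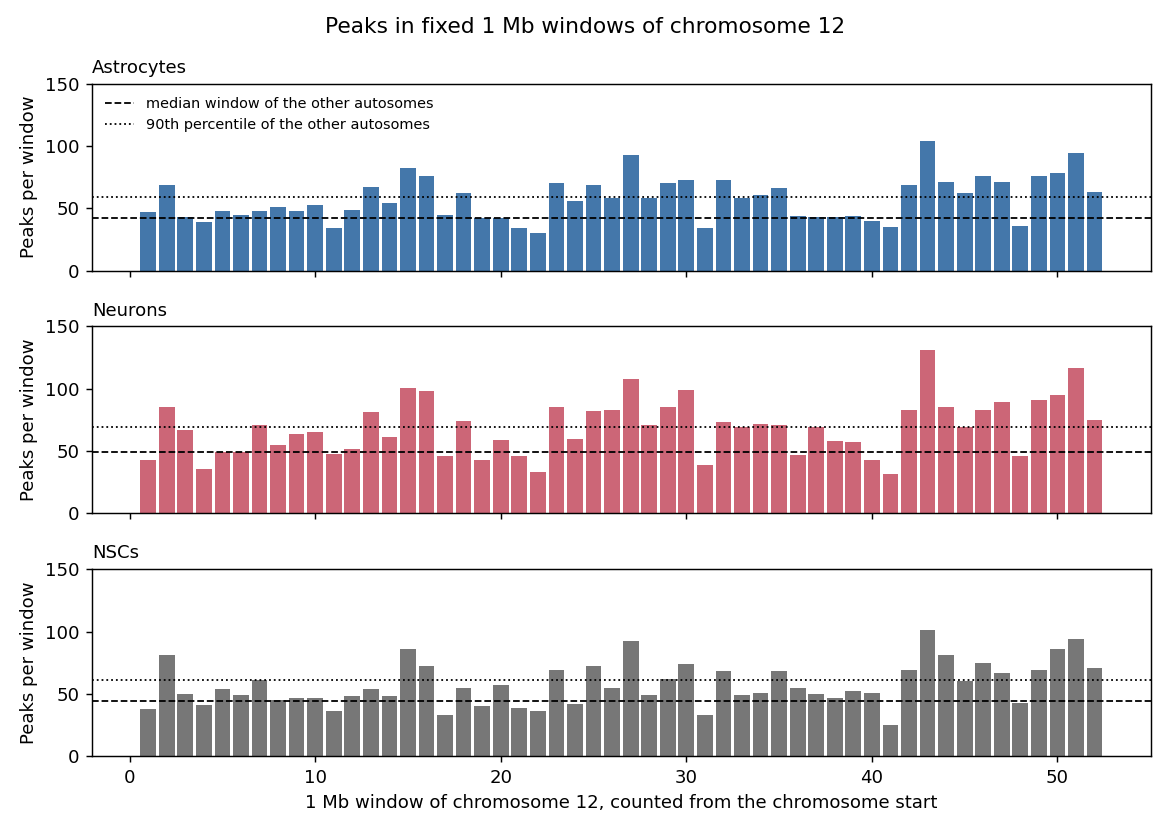
Number of peaks (vertical axis) in each full 1 Mb window of chromosome 12, in order from the chromosome start (horizontal axis), for Astrocytes, Neurons and NSCs from top to bottom. The dashed line is the median window of the other autosomes and the dotted line their 90th percentile; window 43 is the highest in each panel, at 104, 131 and 101 peaks.

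The window from 42 to 43 Mb, window 43, was the densest in all 3 lists, with 104 peaks in Astrocytes, 131 in Neurons and 101 in NSCs. Tbx5, a T-box transcription factor of heart and forelimb development, held 5 of them in Astrocytes, 8 in Neurons and 6 in NSCs. The related factor Tbx3 held 0, 2 and 1, and the antiviral gene Oas1g 1, 2 and 1. Most of the window's peaks lay outside every gene class, 83 in Astrocytes, 100 in Neurons and 81 in NSCs (78.6% over the 3 lists).

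The window from 50 to 51 Mb came second, with 94 peaks in Astrocytes, 117 in Neurons and 94 in NSCs. Sez6l, a membrane protein of neurons related to the seizure gene Sez6, held 19 of them in Astrocytes, 22 in Neurons and 17 in NSCs. The lens crystallin genes Cryba4 (2, 0 and 2) and Crybb1 (0, 1 and 1), the tyrosylprotein sulfotransferase gene Tpst2 (1, 3 and 2) and Asphd2 (1 each) followed, in the order Astrocytes, Neurons and NSCs. The window from 26 to 27 Mb came next, with 93, 108 and 92 peaks in Astrocytes, Neurons and NSCs, and no named gene held any of them. There 89.4% of the peaks over the 3 lists lay outside every gene class.

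The 3 sparsest windows included 2 with peaks in many named genes. The window from 40 to 41 Mb held 35 peaks in Astrocytes, 32 in Neurons and 25 in NSCs, spread over 13 named genes. Hectd4, a HECT-domain gene, held 8 in Astrocytes, 8 in Neurons and 5 in NSCs; Ptpn11, the phosphatase SHP2 gene, held 2, 3 and 1; and Atxn2, which encodes the RNA-binding protein ataxin-2, held 2, 1 and 4. Aldh2, the mitochondrial aldehyde dehydrogenase, held 1 in Astrocytes and 0 in Neurons and NSCs. The window from 30 to 31 Mb held 34, 39 and 33 peaks in Astrocytes, Neurons and NSCs, also over 13 named genes, with Tpst1 (3, 3 and 4) and the splicing factor gene Sfswap (1, 3 and 4) ahead. The window from 21 to 22 Mb held 30, 33 and 36, none in a named gene.

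Across the 52 windows the count was almost unrelated to the share of peaks in gene bodies, with a Spearman rho of 0.02 in Astrocytes, 0.08 in Neurons and −0.03 in NSCs. The number of named genes with a peak gave a rho of −0.06 with the summed count. From 27 to 30 Mb, 81.1% to 94.3% of each window's peaks lay in gene bodies, among them those of Wbscr17 and Caln1. From 34 to 35 Mb the share was 1.52% in Astrocytes, 1.41% in Neurons and 0% in NSCs, although the window held 66, 71 and 68 peaks.

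Peaks fell in or at the promoter of 579 gene symbols of chromosome 12, of which 211 were placeholder names. Of the 368 named genes, 287 had a peak in Astrocytes, 316 in Neurons and 296 in NSCs. A peak in all 3 lists was found in 235 of them, and 72 had a peak in 1 list only.

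A locus with only a placeholder name, LOC100362819, held 66 peaks in Astrocytes, 80 in Neurons and 56 in NSCs, second to Sdk1. The named genes with the most peaks included several of the nervous system's membrane and signalling proteins. Sdk1, an immunoglobulin-type adhesion molecule that in mouse guides synapse formation in the retina, held 80 peaks in Astrocytes, 96 in Neurons and 79 in NSCs. Wbscr17 (RefSeq name Galnt17), an enzyme that starts O-linked glycan chains on proteins, held 59, 70 and 53 in Astrocytes, Neurons and NSCs. Caln1, a calmodulin-like calcium-binding protein of brain, held 42 in Astrocytes, 54 in Neurons and 39 in NSCs. All 3 genes had the most peaks in Neurons, the list with most peaks over the genome.

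Ksr2, a scaffold of the Ras to MAP kinase cascade, held 33 peaks in Astrocytes, 39 in Neurons and 35 in NSCs. The Tmem132 family of single-pass membrane proteins entered with 3 members. Tmem132d held 28, 41 and 28 peaks, Tmem132b 21, 36 and 31, and Tmem132c 27, 27 and 24, in Astrocytes, Neurons and NSCs. Ttc28 held 26, 32 and 31 in the same order, Ccdc60 20, 22 and 20, and Insr, the insulin receptor, 18, 23 and 21. Myo18b, an unconventional myosin known from muscle, tied with Insr in the sum of the 3 lists. The 10 leading named genes held 25.3% of the gene peaks in Astrocytes, 25.9% in Neurons and 25.7% in NSCs.

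**Figure D3:**
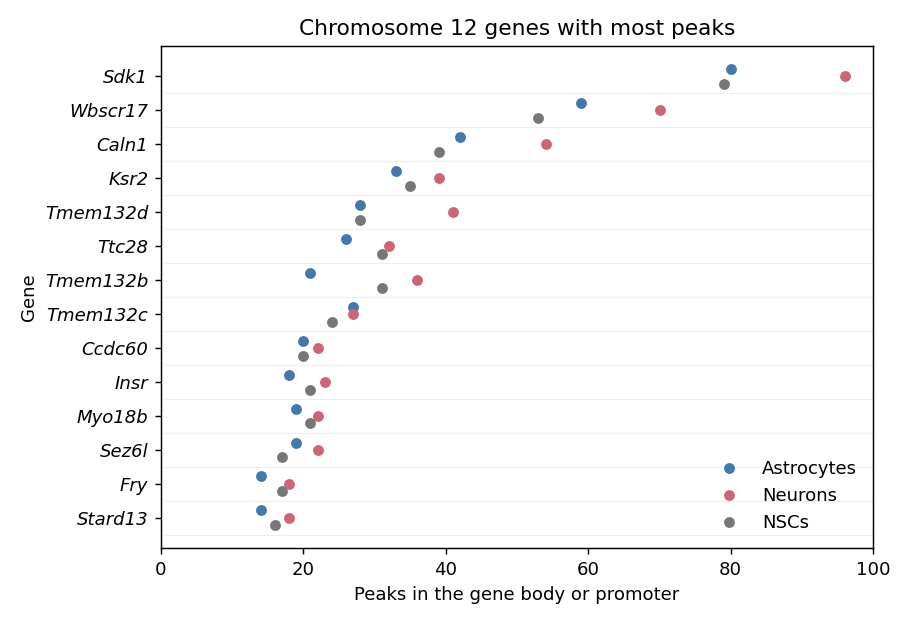
Number of peaks in the gene body or promoter (horizontal axis) of the 14 named chromosome 12 genes with the most peaks summed over the lists (vertical axis), with 1 point each for Astrocytes, Neurons and NSCs. Sdk1 leads with 80, 96 and 79 peaks, and most genes lie highest in Neurons, as the whole list did.

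These are long genes, so counts were also taken per 100 kb, over the RefSeq gene length or, where it was longer, the span of the peaks listed under that gene. The whole chromosome held 5.71 peaks per 100 kb in Astrocytes, 6.855 in Neurons and 5.73 in NSCs. Sdk1 held 8.11, 9.73 and 8.01 per 100 kb in Astrocytes, Neurons and NSCs, Ksr2 8.55, 10.1 and 9.07, and Caln1 8.54, 11.0 and 7.93. Wbscr17 was nearer the chromosome's level, at 6.84, 8.11 and 6.14, and Tmem132d lay below it at 4.33, 6.33 and 4.33. For Wbscr17 the span of its peaks was used, which was longer than its RefSeq length of 458.7 kb. Its density over the RefSeq length would be higher.

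Insr stood at 13.0 peaks per 100 kb in Astrocytes, 16.7 in Neurons and 15.2 in NSCs, and Ccdc60 at 12.1, 13.3 and 12.1. Among named genes of at least 20 kb with at least 15 peaks in all, Tmem130 was densest, with 7, 6 and 5 peaks in Astrocytes, Neurons and NSCs, or 27.1, 23.3 and 19.4 per 100 kb. Oas3 followed with 5, 6 and 7 peaks. At the other end, Cux1, a homeobox factor of upper-layer neurons, held 2.69, 4.19 and 1.80 per 100 kb, and Mad1l1, a gene of the spindle checkpoint, 2.58, 2.26 and 1.94. These genes were picked from the measured counts, and gene lengths come from another annotation than the files used.

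The 10 peaks of largest authors' fold in each list all overlapped a peak of both other cell types, and many lay outside named genes. Such overlap was usual for strong peaks. In the highest score quartile of chromosome 12 it was 97.4% in Astrocytes, 90.8% in Neurons and 95.0% in NSCs. On the other chromosomes it was 94.2%, 89.0% and 90.5%. Named genes held 5 of the 10 in Astrocytes, 5 in Neurons and 1 in NSCs. No gene class was given for 3 in Astrocytes, 4 in Neurons and 5 in NSCs. The largest fold was 133 in Astrocytes and 142 in Neurons, both at a locus with only placeholder names (chr12:43357589-43358667 in Astrocytes as the files give it), where NSCs had 83.8. The largest in NSCs, 131, lay near a gene but in no gene body or promoter (chr12:42516484-42517016), inside the densest window.

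Among named genes, the largest Astrocyte fold was in an intron of Taok3, a protein kinase gene, at chr12:45079217-45079996. The fold of the peak there was 130 in Astrocytes, 104 in Neurons and 59.5 in NSCs. The peak in Insr (chr12:1752094-1752821) had a fold of 123 in Astrocytes, 86.1 in Neurons and 40.5 in NSCs, and that in Ccdc60 (chr12:46130649-46131604) 117, 76.4 and 33.7. Folds come from separate lists with separate inputs and are set side by side, not compared.

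In Neurons the largest fold in a named gene, 116, was in Tmem132b (chr12:36207943-36208605), where Astrocytes had 88.9 and NSCs 60.0. A peak in Zfp394, a zinc finger gene, had 110 in Astrocytes, 110.3 in Neurons and 79.1 in NSCs, and one in Cyp3a9, a cytochrome P450 gene, 83.6, 103 and 56.2. In NSCs the largest in a named gene was the Sdk1 peak at chr12:14776683-14777121, with 89.0, where Astrocytes had 105 and Neurons 102. A peak in an intron of Mospd3, which is also annotated to the promoter of a placeholder locus, had folds of 60.8 in Astrocytes, 70.9 in Neurons and 75.5 in NSCs. A second Tmem132b peak (chr12:35981984-35982661) had 32.7 in Astrocytes, 27.7 in Neurons and 74.3 in NSCs.

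Promoter peaks in all 3 lists were found for 40 named genes, out of 61 with any promoter peak in Astrocytes, 86 in Neurons and 70 in NSCs. For 37 of the 40, the highest-scoring promoter peak of each list overlapped a peak in both other lists, whatever that peak was annotated to. The promoter of Rnf216, a RING-type ubiquitin ligase, had scores of 1287 in Astrocytes, 1080 in Neurons and 1286 in NSCs, on an island shore (chr12:13505962-13506961 in Astrocytes). Hspb8, a small heat shock protein gene, had 968, 1506 and 819 at chr12:45903095-45903885. Ulk1, the kinase that starts autophagy, had 713, 723 and 618 at chr12:51906182-51906752, on a shore.

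Other promoters in this group belonged to neural and immune genes. Msi1, an RNA-binding protein of neural stem cells, had a promoter peak with scores of 1440 in Astrocytes, 1279 in Neurons and 1026 in NSCs (chr12:46935602-46936785 in Astrocytes). The antiviral synthetase genes Oas2 (751, 748 and 1097) and Oas3 (504, 856 and 759) and the C-type lectin gene Clec4g (811, 1562.5 and 851) had theirs outside islands and shores. Dtx1, a regulator of Notch signalling, had 469, 498 and 294 on a shore. Of the 40 genes, 1 had its promoter peak in a CpG island in every list, Cux1, with 349 in Astrocytes, 639 in Neurons and 497 in NSCs. On a shore in every list were 8, and 31 lay outside islands and shores in every list.

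Genes of synaptic and neuronal signalling held the most peaks of 13 functional lists. A peak was found in 19 of 24 such genes in Astrocytes, 18 in Neurons and 18 in NSCs, with 235, 271 and 227 peaks in all, of which Sdk1, Caln1 and Ksr2 held most. Rimbp2, a presynaptic active zone protein, held 9 peaks in Astrocytes, 6 in Neurons and 8 in NSCs, and Nos1, neuronal nitric oxide synthase, 8, 8 and 5. Ache, acetylcholinesterase, Nptx2, neuronal pentraxin, and Cabp1, a calcium-binding protein, held no peak over input in any cell type. Each did hold 1 region that the authors listed as higher in 1 cell type than in another. Over all lists, 61.5% of 187 genes had a peak in Astrocytes, 66.8% in Neurons and 63.1% in NSCs, where 45.1%, 49.3% and 45.8% of the 672 protein-coding RefSeq genes of the chromosome did. The lists were drawn up with results of these data known and are unequal in gene length, so nothing is read from that gap.

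Of 16 neural development genes, 11 had a peak in Astrocytes, 12 in Neurons and 11 in NSCs. Of all 672 protein-coding RefSeq genes of the chromosome, 45.1%, 49.3% and 45.8% did, in the same order. Srrm4, a splicing factor of neurons, held 14 peaks in Astrocytes, 13 in Neurons and 10 in NSCs. Med13l, a Mediator subunit, held 6 in each, and Foxn4, a forkhead factor of neural progenitors, 1, 2 and 2. The symbols Auts2, Gsx1 and Lfng did not occur in the lists, which name a gene only where a region lies, so peaks annotated under another name would be missed here. The chromatin regulators had 7 of 14 genes with a peak in Astrocytes and 11 of 14 in both Neurons and NSCs. Kdm2b, a histone demethylase, held 2 peaks in Astrocytes, 4 in Neurons and 8 in NSCs, and Ep400, a remodelling ATPase, 3, 3 and 5.

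In a list of 26 genes drawn up for the Williams syndrome interval, 11 had a peak in Astrocytes, 12 in Neurons and 11 in NSCs. Over the 672 protein-coding genes of the chromosome these shares were 45.1%, 49.3% and 45.8%. Wbscr17 alone held 59 of 74, 70 of 91 and 53 of 74 peaks. Whether Wbscr17 belongs to the interval was not checked, so these totals are not read as those of the interval. A region of Wbscr17 lay at chr12:29004207, and one of Mlxipl, another gene of the list, at chr12:24612528. Stx1a, the syntaxin of synaptic vesicle fusion, held 2, 3 and 3. The transcription factor gene Gtf2ird1 held 3, 6 and 6, and its relative Gtf2i 0, 1 and 1. Among 16 receptor and growth factor genes, 10 had a peak in Astrocytes, 11 in Neurons and 11 in NSCs, led by Insr. Flt1, a receptor of vascular endothelial growth factor, held 10, 11 and 10, and Flt3, a receptor of blood progenitors, 7, 12 and 8, in Astrocytes, Neurons and NSCs.

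Genes without a special tie to the nervous system carried peaks as well. The counts below stand beside 45.1% of all 672 protein-coding genes with a peak in Astrocytes, 49.3% in Neurons and 45.8% in NSCs. Of 16 metabolic enzymes, 13 had a peak in Astrocytes, 12 in Neurons and 12 in NSCs, with Acacb, which makes malonyl-CoA at mitochondria, at 11, 12 and 7. Of 17 immune genes, 11, 12 and 10 had one in Astrocytes, Neurons and NSCs, with Oas2 at 3, 4 and 5. Of 21 cytoskeletal genes, 14, 13 and 12 had one, while the symbol of the actin gene Actb did not occur. Of 6 Cyp3a genes, 5, 5 and 4 had one. Of 14 channels and pumps, 9, 10 and 8 did, with the ATP-gated channel gene P2rx7 at 5, 3 and 3. Of 19 DNA repair and cell cycle genes, 7 did in Astrocytes, 9 in Neurons and 10 in NSCs, and Mcm7 held no peak over input.

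Chromosome 12 peaks were shared between cell types more often than peaks elsewhere. A peak counted as shared when it overlapped a peak of both other cell types by at least 1 bp. In Astrocytes 59.7% (57.9 to 61.4) of chromosome 12 peaks were shared, against 45.4% (45.1 to 45.7) on the other chromosomes. In Neurons 49.8% (48.1 to 51.4) were, against 38.3% (38.04 to 38.56), and in NSCs 59.3% (57.5 to 61.0), against 43.2% (42.9 to 43.5). Each share was the highest of 20 autosomes; the next was chromosome 20 in Astrocytes (54.3%) and Neurons (46.1%) and chromosome 19 in NSCs (51.8%). Across the 19 other autosomes, all read from the same libraries, sharing went with density at a Spearman rho of 0.609 in Astrocytes, 0.684 in Neurons and 0.589 in NSCs.

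Peaks found in 1 list alone were correspondingly fewer. They made up 19.7% of chromosome 12 peaks in Astrocytes, 28.7% in Neurons and 20.96% in NSCs, against 29.5%, 36.3% and 32.4% on the other chromosomes. When overlapping peaks were merged, chromosome 12 had 5015 regions, of which 1780 (35.5%, 34.2 to 36.8) had a peak in all 3 cell types, against 23.6% (23.4 to 23.8) on the other chromosomes. A further 391 regions were shared by Astrocytes and Neurons only, 362 by Neurons and NSCs only and 218 by Astrocytes and NSCs only. Regions of a single list numbered 593 in Astrocytes, 1038 in Neurons and 633 in NSCs.

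Sharing went with score, and the gap was smaller among peaks of similar score. In the highest score quartile 97.4% (96.3 to 98.2) of chromosome 12 peaks were shared in Astrocytes, against 94.2% (93.9 to 94.4) elsewhere. In Neurons the values were 90.8% (89.1 to 92.2) and 89.0% (88.7 to 89.4), where the intervals overlap, and in NSCs 95.0% (93.6 to 96.2) and 90.5% (90.1 to 90.8). In the third quartile the shares were 57.5% on chromosome 12 and 48.6% elsewhere in Astrocytes, 41.7% and 37.2% in Neurons, and 57.7% and 46.0% in NSCs. In the lowest quartile they were 17.95% and 14.8% in Astrocytes, 12.2% and 10.4% in Neurons, and 17.2% and 13.9% in NSCs. The second quartile of Neurons ran the other way, at 15.7% (13.1 to 18.5) on chromosome 12 and 17.6% (17.21 to 18.03) elsewhere, with overlapping intervals.

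**Figure D4:**
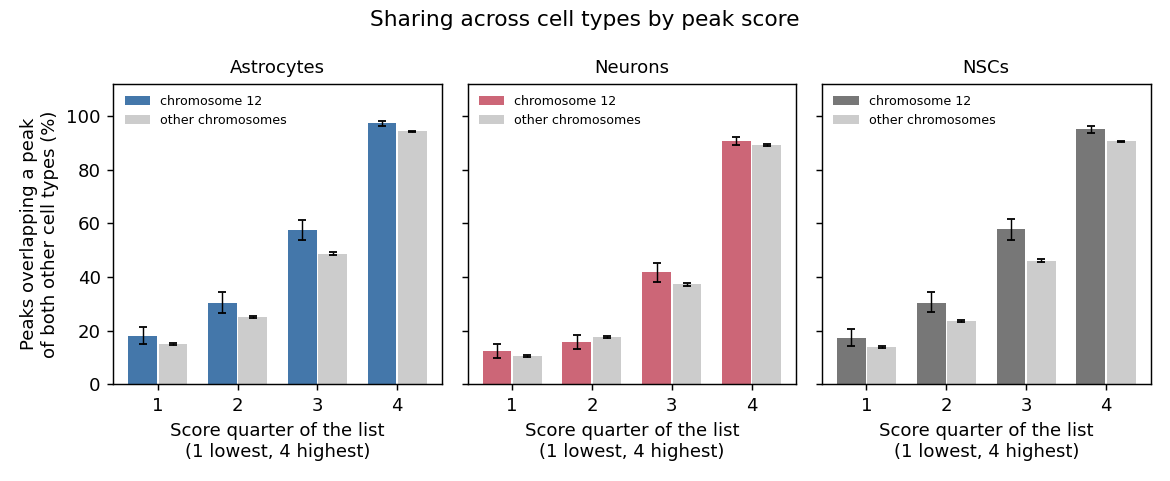
Percent of peaks that overlapped a peak of both other cell types (vertical axis) by score quartile of the list, 1 lowest and 4 highest (horizontal axis), for chromosome 12 (coloured) and the other chromosomes (grey), with exact 95% intervals as error bars. Shares run between 17.95% and 97.4% over the quartiles of chromosome 12 in Astrocytes, and the gap to the other chromosomes is smaller within a quartile than over whole lists.

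Sharing was similar inside and outside genes. In Astrocytes 59.8% of chromosome 12 gene body peaks and 59.1% of those outside every gene class were shared; in Neurons these shares were 49.9% and 49.8%, and in NSCs 60.05% and 59.0%. On the other chromosomes the corresponding values were 46.8% and 44.5% in Astrocytes, 39.7% and 37.5% in Neurons, and 45.6% and 41.8% in NSCs. Within Sdk1, 56 of the 80 Astrocyte peaks, 55 of the 96 Neuron peaks and 55 of the 79 NSC peaks were shared. Tmem132c was lower, with 10 shared peaks of 27 in Astrocytes, 27 in Neurons and 24 in NSCs. Msi1 had 3 shared peaks of 3 in Astrocytes, 4 in Neurons and 3 in NSCs. Tbx5 had 5 shared peaks of 5, 8 and 6 in the same order.

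Chromosome 12 peaks were also listed less often as differing between cell types. The authors deposited 6 lists of regions higher in 1 immunoprecipitated library than in another, and a peak was counted when it overlapped such a region. The lists share libraries with each other and with the peak lists, so their values stand side by side and are not independent. Of chromosome 12 peaks of Astrocytes, 226 of 3007 (7.52%, 6.60 to 8.52) lay in a region listed as higher than in Neurons, against 11.3% (11.1 to 11.5) on the other chromosomes and 11.2% over all chromosomes. For Astrocytes over NSCs it was 350 of 3007 (11.6%, 10.5 to 12.8), against 15.1% (14.9 to 15.3) elsewhere and 15.0% over all.

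Of the Neuron peaks, 682 of 3612 (18.9%, 17.6 to 20.2) lay in a region higher than in Astrocytes, against 22.2% (21.97 to 22.41) elsewhere and 22.1% over all chromosomes. For Neurons over NSCs the count was 671 of 3612 (18.6%, 17.3 to 19.9), against 19.8% (19.6 to 20.0) elsewhere and 19.7% over all, with overlapping intervals. Of the NSC peaks, 357 of 3020 (11.8%, 10.7 to 13.0) were higher than in Neurons, against 17.0% (16.8 to 17.2) and 16.9% over all. For NSCs over Astrocytes it was 490 of 3020 (16.2%, 14.9 to 17.6), against 20.3% (20.0 to 20.5) and 20.2% over all. Chromosome 12 ranked last of 20 autosomes in 5 of the 6 lists and 19 in Neurons over NSCs.

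**Figure D5:**
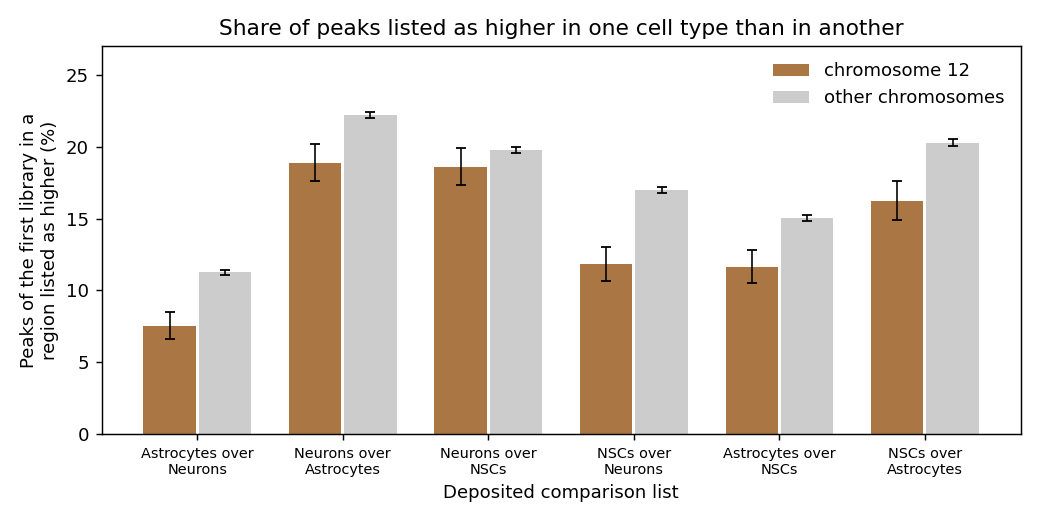
Percent of the first cell type's peaks that overlapped a region the authors listed as higher than in the second (vertical axis), for each of the 6 deposited lists (horizontal axis), on chromosome 12 (brown) and on the other chromosomes (grey), with exact 95% intervals as error bars. Chromosome 12 is lower in all 6, from 7.52% against 11.3% for Astrocytes over Neurons, and its interval overlaps the other in Neurons over NSCs.

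The gap was present in most score quartiles. Over 6 lists and 4 quartiles, chromosome 12 was below the other chromosomes in 21 of 24 cases, with its whole interval below in 13 and its whole interval above in 0. In the second quartile of Astrocytes it was 8.80% (6.64 to 11.4) against 14.8% (14.4 to 15.3) for the list over Neurons and 10.7% (8.29 to 13.4) against 17.8% (17.4 to 18.3) for the list over NSCs. In the highest quartile, Neurons over Astrocytes gave 17.5% on chromosome 12 and 17.5% elsewhere, and NSCs over Astrocytes 14.8% and 14.8%.

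By direction, chromosome 12 leaned to Neurons over NSCs. It had 930 regions listed as higher in Neurons than in NSCs and 650 the other way, so 58.9% (56.4 to 61.3) favoured Neurons, against 53.7% (53.3 to 54.1) on the other chromosomes. Between Astrocytes and Neurons there were 389 and 1027 regions, and 27.5% (25.2 to 29.9) favoured Astrocytes, against 29.5% (29.1 to 29.9). Between Astrocytes and NSCs there were 556 and 788, and 41.4% (38.7 to 44.1) favoured Astrocytes, against 40.3% (39.8 to 40.7). In the last 2 pairs the intervals overlapped.

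Genes with many peaks held many of these regions. In the authors' deposited tables Sdk1 had 6 regions higher in Astrocytes than in Neurons and 28 the other way, 18 higher in Neurons than in NSCs and 8 the other way, and 7 higher in Astrocytes than in NSCs and 16 the other way. Tmem132d had 2 higher in Astrocytes than in Neurons and 16 the other way, and Ksr2 2 and 14. Kdm2b had 1 higher in Neurons than in NSCs and 4 the other way. The cell cycle kinase gene Cit had 8 higher in Neurons than in NSCs and 1 the other way. Over chromosome 12 as a whole, 27.5% of regions favoured Astrocytes over Neurons, 58.9% Neurons over NSCs and 41.4% Astrocytes over NSCs. On the other chromosomes these shares were 29.5%, 53.7% and 40.3%. All of these genes but Kdm2b thus leaned as the whole lists did, and they were chosen after their values were seen.

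Among regions in named genes, the leading one higher in Neurons than in Astrocytes, an intronic region of Acacb (chr12:48205409-48206169) had a fold of 20.5 in the authors' deposited table. Higher in Neurons than in NSCs, regions in Ttc28 and Wbscr17 had folds of 20.9 and 20.6 in the authors' deposited table. Higher in NSCs than in Astrocytes, regions in Myo18b (chr12:49954589-49955025) and in Mlxipl, a glucose-responsive transcription factor gene, had 25.4 and 18.7 in the authors' deposited table. Higher in Astrocytes than in NSCs, the authors' deposited table gave 19.9 for a region of Rnf6, a ubiquitin ligase gene. Higher in Astrocytes than in Neurons, it gave 16.3 for Med13l and 14.6 for Hrk, a gene of a pro-apoptotic protein, both in introns.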

How the data were processed

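Genomic DNA of Astrocytes, Neurons and NSCs was immunoprecipitated with a 6mA antibody, with 1 library per cell type, and 5 libraries had samples, inputs of Neurons and NSCs included. Reads were aligned with BWA, per the submitters' processing notes; its version, the genome build, the peak caller, the annotation and the filters are not stated in those notes or the labels. The authors deposited counts of reads and, for mapping, the percent of them that mapped. The deposited peak score is 10 times the −log10 p, and the authors' fold is a ratio of a library to its input or, in 6 comparison lists, to another library. The Astrocyte list is named against its own input, which has no sample here.

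Peaks were taken as deposited, with 6 blank lines skipped. Chromosome 12 peaks were placed by midpoint in 1 Mb windows, and chromosome length was the largest region end in any deposited list. The members, gene lists and alternatives were chosen with earlier results of these data known. Named genes were those of 13 lists, the 10 with the largest folds per cell type, the 10 with most peaks, those of the 3 densest and 3 sparsest windows, and promoter peaks in all 3 lists; genes cited for density per 100 kb or for regions in the comparisons were chosen after their values were seen. Of 368 named symbols, 364 matched RefSeq GRCr8, used for lengths and promoter sequences only. Overlap and window counting were tested on simulated data. No p was computed; the deposited GO and KEGG tables were not used. Python 3.11.15, pandas 2.3.3, numpy 2.4.6 and scipy 1.17.1 were used.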

Additional observations from a re-analysis of the deposited data

How the results depend on the processing

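Of 60 values recomputed under alternatives, 36 stayed within their counting error or, for window counts, within 1.5 times, and 24 moved. Whether a difference from the other chromosomes changed direction was not scored. With scores of at least 87.4 only, the relative density of chromosome 12 was 1.57 in Astrocytes, 1.55 in Neurons and 1.5 in NSCs, and the share in both other lists 71.1%, 58.8% and 70.3%, where the other chromosomes had 56.6%, 46.8% and 53.9%; the share listed as higher was 6.08% for Astrocytes over Neurons and 9.80% for NSCs over Neurons. With folds of at least 12.1 only, relative density was 1.21 in Astrocytes, where chromosome 19 (27.2 peaks per Mb) then passed chromosome 12 (27.1), and 1.26 in Neurons. The shared percent was then 67.0%, 53.7% and 64.7% in Astrocytes, Neurons and NSCs, where the other chromosomes had 50.2%, 40.1% and 48.2%. The gene body percent was 41.2% in NSCs, against 34.3% on the other chromosomes. The densest window held 63, 74 and 64 peaks, and Astrocytes over Neurons gave 5.05%. For shares listed as higher, the other chromosomes were not recomputed under the alternatives, so whether that gap held was not tested. Counting covered bases gave a relative density of 1.65 in Astrocytes, 1.65 in Neurons and 1.503 in NSCs. Requiring that both peaks overlap over at least the 0.5 share of each gave 55.7%, 46.4% and 55.4% shared. The other chromosomes then had 41.3%, 34.8% and 39.2%. Shifting the windows moved the Astrocyte maximum to chr12:49500001-50500000 (94 peaks). The cause of these shifts was not tested, beyond fewer peaks under the stricter minimums. No paired analysis was possible because each cell type had 1 library. Depth was 13785430 to 13930646 unique reads per immunoprecipitated library; its effect on which peaks were called was not tested.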

Other observations

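Very broad peaks were common on chromosome 12. Peaks of at least 1 kb made up 8.02% (7.07 to 9.04) of its peaks in Astrocytes, 8.61% (7.71 to 9.57) in Neurons and 9.44% (8.42 to 10.5) in NSCs, against 3.27%, 3.32% and 4.01% on the other chromosomes. The widest, however, lay elsewhere: the maximum on chromosome 12 was 2074 bp in Astrocytes, 2145 bp in Neurons and 3718 bp in NSCs, where the other chromosomes reached 7341, 8975 and 18020 bp. Peaks with a fold of at least 50 were no more common, at 2.59% in Astrocytes, 2.13% in Neurons and 2.05% in NSCs on chromosome 12, against 3.14%, 3.06% and 2.09%. A score of exactly 3100 was carried by 15 chromosome 12 peaks in Astrocytes, 17 in Neurons and 10 in NSCs, among them those in Taok3, Insr and Ccdc60 in Astrocytes; higher scores occurred in Neurons, up to 3163, and in NSCs, up to 3128.

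The longest stretch without a peak in any list measured 193.3 kb (chr12:8519898-8713168), followed by 161.0 kb near the chromosome start (chr12:1512982-1674025). In a few windows the listed differences leaned far to 1 side. From 12 to 13 Mb, 26 regions were higher in Neurons than in NSCs and 6 the other way, and from 46 to 47 Mb 32 and 8. From 3 to 4 Mb it was 3 and 16. From 49 to 50 Mb, 2 regions were higher in Astrocytes than in Neurons and 22 the other way. These windows were picked for their values among 52 and carry no test.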
